A study of Mus musculus with 25 samples.

Results

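Telocyte-like interstitial barcodes were the subject, and they were selected on the transcripts they held. A barcode stands for the contents of 1 droplet, and a UMI (unique molecular identifier) for 1 captured transcript molecule. A barcode was a member when it had at least 200 UMIs, at least 3 UMIs over Dcn, Gsn, Col1a1, Col1a2, Col3a1, Tcf21 and Pdgfra with at least 1 of Dcn, at least 0.5% of its UMIs from these 7 genes, and under 1% of its UMIs from the Leydig cell genes Insl3, Cyp17a1, Cyp11a1 and Star. The rule found 120 members among 43469 barcodes of at least 200 UMIs in 21 whole-testis Drop-seq libraries, or 0.276%. The whole series of 25 libraries, including 4 of sorted germ cells, held 44404 such barcodes.

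The 11 WT libraries are labelled C57BL/6 (C57BL/6J in the study's methods, also for CNP), from mice aged 3 months 1 day to 9 months 14 days. The 6 Mlh3 libraries are from Mlh3-/- mice of 2 months 21 days to 8 months 30 days, which lack a DNA mismatch repair protein needed for meiotic crossovers. Their background is labelled B6;129, whereas the methods name the strain B6.129-Mlh3tm1Lpkn/J. The 2 Cul4a libraries are from Cul4a-/- mice on B6;129, lacking a ubiquitin ligase scaffold, labelled 1 month 18 days and 1 month 21 days. The 2 CNP libraries are from mice with the CNP eGFP BAC TRAP transgene on C57BL/6, labelled 2 months 14 days and 2 months 16 days, and for the Cul4a and CNP mice the study's own sample list gives the ages the other way round. Testes were dissociated mechanically, apart from WT replicates 1 and 2, which were dissociated with enzymes. WT replicates 1 and 3 and Mlh3 replicates 1 and 2 were sequenced on a MiSeq and the others on a HiSeq. Genotype and background cannot be told apart between WT and Mlh3 or Cul4a. The Cul4a, CNP and Mlh3 replicate 4 to 6 mice were younger than every WT mouse, whereas the ages of Mlh3 replicates 1 to 3 lay within the WT range.

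Telocytes are interstitial cells with very long, thin extensions, found in the space between the seminiferous tubules beside Leydig cells, vessels and the muscle-like peritubular cells. They are usually recognised in tissue by CD34 and PDGFRA protein, and stromal cells of this kind make collagens and other matrix proteins. Dcn encodes decorin, a small proteoglycan that binds collagen fibrils, and Gsn encodes gelsolin, which severs actin filaments. Col1a1, Col1a2 and Col3a1 encode fibrillar collagen chains, Tcf21 a transcription factor of mesenchymal cells, and Pdgfra a receptor for platelet-derived growth factor.

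Libraries held 357235 to 9745302 UMIs. Over whole libraries, transcript levels of both disrupted genes did not lie below the WT range: Mlh3 was at 26.2 to 86.5 CPM (UMIs of a gene scaled to the same total in every library) in Mlh3 libraries and 10.7 to 72.9 in WT, and Cul4a at 49.0 to 54.5 in Cul4a libraries and 5.60 to 45.7 in WT. Whether these 3′ end tags lie within the deleted parts is not given in the sources used here, so they are no check of the labels. Mlh3 replicates 2 and 3 have the same age in the labels, which do not say whether they are from separate mice, and merging them left the Mlh3 share result below in place (0.701 percentage points, exact permutation p = 0.000458). Members had a median of 632 UMIs (201 to 4114) and 492.5 genes (163 to 2349), and 104705 UMIs in all. Of these, WT members held 11839, Mlh3 members 80387 and Cul4a members 12479, so the precision of a level in WT and Cul4a was limited by few molecules. Barcode sequences were shared by 172 of the 210 pairs of libraries, with at most 27 shared by a pair, and no member's barcode occurred among the members of another library. Mlh3 libraries stood apart in mitochondrial RNA, which made up 7.62% to 16.1% of the UMIs of members and 4.55% to 13.4% of those of other barcodes. The same shares were 0.885% to 2.60% and 0.403% to 1.72% in WT, and 1.73% to 2.71% and below 1% in Cul4a.

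By construction every member held the markers, and these values are a description without a test. Members held a median of 10.5 UMIs of the 7 rule genes (3 to 150), 64 members had at least 10, and 15 had exactly 3. The rule genes made up a median of 1.64% of a member's UMIs (0.506% to 7.00%), with 32 members under 1%. On the other side of the threshold, 103 barcodes missed only the 0.5% minimum, the closest at 0.487%, while 28 had 2 marker UMIs, 5 lacked Dcn and 4 exceeded the Leydig limit.

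Dcn (chromosome 10, 97479609 to 97518143, plus strand, GRCm38) was in all 120 members, with a median of 5 UMIs. Its level in CPM was 7937, 30229, 8683, 4305, 12167 and 4425 in members of WT replicates 3, 5, 6, 7, 8 and 9. It was 5848, 3313, 11594, 11862 and 8698 in Mlh3 replicates 1, 2, 4, 5 and 6, and 8541 and 9329 in Cul4a replicates 1 and 2. The groups overlapped, and WT replicate 5 lay above all others and gave 124 of the 189 WT Dcn UMIs. Gsn was detected in 99 members, Col1a2 in 83, Col3a1 in 52, Pdgfra in 39, Col1a1 in 24 and Tcf21 in 20. Pdgfra was mostly seen in Mlh3 members, at 0, 663, 356, 941 and 762 CPM in replicates 1, 2, 4, 5 and 6. In WT it was at 244 in replicate 5, from 1 UMI, and at 0 in the other libraries with members. Cul4a replicates 1 and 2 were at 462 and 245. As a rule gene it was not tested between strains. In the 3 libraries with at least 10 members, Mlh3 replicates 4, 5 and 6, Dcn averaged 10718 ± 1754 CPM in members (SD, n = 3) and 47.1 in the other barcodes. Gsn was at 5623 ± 672 (SD, n = 3) against 28.4, Col1a2 at 2519 ± 606 (SD, n = 3) against 19.8, Col3a1 at 1448 ± 336 (SD, n = 3) against 8.76, and Pdgfra at 686 ± 300 (SD, n = 3) against 9.70.

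Cd34 (chromosome 1, 194938819 to 194961279, plus strand), the surface sialomucin of the telocyte definition, played no part in the rule and was present in 31 of the 120 members, or 25.8%. Its level was 640, 659 and 639 CPM in members of Mlh3 replicates 4, 5 and 6, 1462 in replicate 1 from 2 UMIs, and 0 in replicate 2. In WT it was 731 in replicate 5 and 0 in the other 5 libraries with members, and in Cul4a it was 231 and 123, from 1 UMI each. To compare detection between barcodes of different depth, every barcode of the WT, Mlh3 and Cul4a libraries was thinned to 200 UMIs. Cd34 was then found in 10% of the 120 members (95% exact binomial interval 5.27 to 16.8), in 0 of 465 Leydig-rule barcodes (3 counts of the total allow up to 0.645%), in 0.167% of 598 Sertoli-rule barcodes, in 0 of 69 macrophage-rule barcodes (up to 4.35%) and in 0.0302% of the 39703 barcodes that met none of these rules. These limits hold for detection at 200 UMIs only. Without thinning, Cd34 was found in 0.860% of Leydig-rule, 0.669% of Sertoli-rule and 0% of macrophage-rule barcodes. The 3 comparison classes were defined in the same way by UMIs of their own marker genes, and the intervals and limits cover counting error only. Cd34, Pdgfra and Tcf21 were rarely caught together: 4 members had all 3, 9 had Cd34 and Pdgfra alone, and 55 had none of the 3. The 55 members with none had a median of 521 UMIs, against 1752 in the 9 with Cd34 and Pdgfra.

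**Figure D1:**
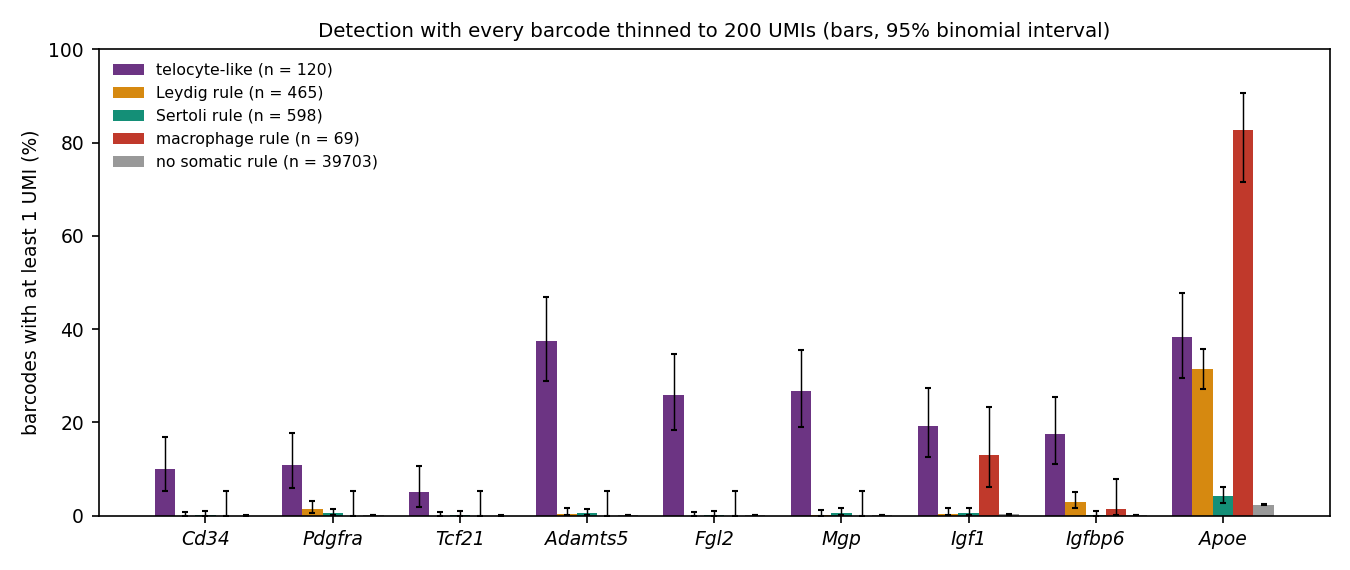
Share of barcodes with at least 1 UMI (vertical axis, percent) for 9 genes after thinning each barcode to 200 UMIs, by barcode class (colours, with the number of barcodes), with 95% exact binomial intervals. Cd34, Adamts5, Fgl2 and Mgp were found in 10%, 37.5%, 25.8% and 26.7% of telocyte-like barcodes and in under 1% of each other class, whereas Igf1 and Apoe were also found in macrophage-rule barcodes (13.0% and 82.6%).

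Beyond Cd34, the other telocyte genes of the study that the rule did not use were basement membrane and matrix genes and Des. Col6a1 was detected in 28 members, Col4a1 in 28, Lama2 in 40, Lamb2 in 39 and Des, an intermediate filament gene of muscle, in 3. Of the 8 genes of this list outside the rule, 6 had at least 30 UMIs in members of Mlh3 replicates 4, 5 and 6 (Cd34, Col4a4, Col4a1, Lamb1, Lama2 and Lamb2), and these were 22.0-fold to 48.7-fold higher than in the other barcodes of the same libraries. The study picked this list on cells of these libraries, so it is not independent evidence.

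The 30 genes that led the members outside the rule included the protease gene Adamts5, the growth factor gene Igf1 and the matrix genes Mgp and Ogn. They were ranked by the ratio of members to other barcodes in Mlh3 replicates 4, 5 and 6 (87 members, 76001 UMIs, 10 CPM added to both sides), among 283 genes with at least 30 UMIs in these members, 5 rule genes included. The minimum of 30 UMIs, the means and the levels in Leydig-, Sertoli- and macrophage-rule barcodes refer to these 3 libraries in the gene groups that follow as well. Of these 283 genes, 124 were at least 2-fold and 74 at least 10-fold higher in members, and the 30 leading genes ranged from 28.0-fold to 132-fold. Since the members of 1 cell type share more than the rule genes, this ranking is again a description without a test. In libraries that the ranking did not use, 30 of the 30 genes were at least 2-fold higher in pooled Cul4a members than in other Cul4a barcodes, and 29 of 30 in WT, where C3 had no UMI in members. These counts mean little more than detection, since 1 UMI was enough to pass. Igf1 in WT and C3 in Cul4a passed on 1 UMI each, at 5.59-fold and 7.38-fold. The same rule chose these members, and no share over all genes is given.

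Adamts5 (chromosome 16, 85856173 to 85901828, minus strand), which encodes a protease that cleaves the proteoglycan aggrecan, led the ranking. Its level was 3130, 3671 and 2187 CPM in members of Mlh3 replicates 4, 5 and 6 and 12.9 in the other barcodes, and it was present in 75 of 120 members. Leydig-rule and Sertoli-rule barcodes of these 3 libraries had 12.0 and 14.5 and macrophage-rule barcodes 0, while over all WT, Mlh3 and Cul4a libraries 2 of 69 macrophage-rule barcodes had a UMI. Fgl2, a secreted fibrinogen-like protein, followed at 1583 ± 303 (SD, n = 3) and 80.5-fold.

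Genes of secreted growth factors and their binding proteins made up the next group. Igf1 (chromosome 10, 87858265 to 87937042, plus strand), insulin-like growth factor 1, was at 1737 ± 903 (SD, n = 3), or 79.9-fold over other barcodes, with 692 in macrophage-rule and 4.26 in Leydig-rule barcodes of the same libraries. The IGF-binding proteins Igfbp6 and Igfbp4 were at 1342 ± 693 and 454 ± 55.3 (SD, n = 3). Igfbp7 was at 2092 ± 265 (SD, n = 3), close to the 1890 in Leydig-rule barcodes. Ltbp4, which binds latent transforming growth factor beta in the matrix, was at 820 ± 187 (SD, n = 3). Rarres2, the gene of the chemoattractant chemerin, was at 823 ± 173 (SD, n = 3) and had no UMI in Leydig-, Sertoli- or macrophage-rule barcodes of the 3 libraries. Of 45 growth factor and chemokine genes listed, 27 had a UMI in members and 7 had at least 30 UMIs, all 7 over 10-fold higher in members. Igfbp3 counts among the 7 only through 1 member of Mlh3 replicate 6, which held 30 of its 31 UMIs. Among the 7 were Penk, the precursor of enkephalins, at 820 ± 167 against 0 in Leydig-rule barcodes, and Kitl, the ligand of the germ cell receptor KIT, at 517 ± 234 (SD, n = 3). Gdnf, Cxcl1, Ccl2 and Il6 had no UMI in any member.

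Matrix and basement membrane genes were broadly present. Of 17 basement membrane genes, 16 had a UMI in members, and the 5 with at least 30 UMIs were all over 10-fold higher: Lamb1 at 975 ± 151, Col4a4 at 851 ± 286, Lama2 at 655 ± 137, Lamb2 at 496 ± 70.8 and Col4a1 at 406 ± 200 (SD, n = 3). The laminin genes among these encode chains of the sheet-like laminin network, and Col4a4 and Col4a1 chains of collagen IV, its partner. Of 39 further matrix genes, 34 had a UMI in members, and the 5 with at least 30 UMIs were at least 2-fold higher. Among them, Mgp, an inhibitor of calcification, was at 1344 ± 286 (60.1-fold), Ogn, a small proteoglycan, at 1041 ± 276 (37.1-fold) and Sparcl1 at 2031 ± 582 (39.1-fold; SD, n = 3). Sparc did not single out members, with 1506 against 2377 in Leydig-rule barcodes. Of 29 genes of matrix turnover, 25 had a UMI, and besides Adamts5 the most abundant were the inhibitors Cst3, Timp2 and Serping1. Cst3 and Timp2 were also abundant in macrophage-rule barcodes (6423 and 1896 CPM), but Serping1, the inhibitor of complement component C1, was at 1263 ± 172 in members (SD, n = 3), 302 in Leydig-rule and 56.6 in macrophage-rule barcodes.

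Enzymes and transfer proteins of retinoids, sterols and lipids also stood among the 30. Cyp26b1 (chromosome 6, 84571414 to 84593908, minus strand), an enzyme that breaks down retinoic acid, was at 498, 1883 and 983 CPM in members of Mlh3 replicates 4, 5 and 6. It was at 22.2 in Sertoli-rule and 11.8 in Leydig-rule barcodes. Cyp27a1, a sterol hydroxylase, was at 530 ± 266, and Pltp, a phospholipid transfer protein, at 577 ± 255 in members (SD, n = 3) but 649 in macrophage-rule barcodes. Ppap2b, a lipid phosphatase, was at 2427 ± 1036 (SD, n = 3) and 61.0-fold.

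Among 38 transcription factor genes, the rule gene Tcf21 included, 31 had a UMI in members, and only Tcf4, Maf and Nr2f2 reached 30 UMIs. Nr2f2, the nuclear receptor COUP-TFII of interstitial stroma, was at 444 ± 351 (SD, n = 3) against 107 in Leydig-rule and 0 in Sertoli-rule barcodes of the same libraries, and 8 of 598 Sertoli-rule barcodes of all WT, Mlh3 and Cul4a libraries had a UMI. Maf was at 690 ± 314 (SD, n = 3), below the 1298 of macrophage-rule barcodes. Of 30 receptor genes, the rule gene Pdgfra included, 23 had a UMI, led after Pdgfra by Nr3c1, the glucocorticoid receptor, at 446 ± 295 (SD, n = 3). Gli1, a target of hedgehog signalling, was found in 4 members and its receptor gene Ptch1 in 2, while Igf1r had no UMI in members. Of 24 surface and stromal stem cell genes, 21 had a UMI and all 8 with at least 30 UMIs were at least 2-fold higher, among them Anxa2, S100a6 and Ly6a, which encodes the stem cell antigen SCA-1, at 306 ± 182 (24.9-fold; SD, n = 3).

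The study listed 14 genes of amyloid processing on these libraries, and 13 of them had a UMI in members. Apoe, apolipoprotein E, was at 3029 ± 202 CPM (SD, n = 3) in members, 2454 in Leydig-rule and 17653 in macrophage-rule barcodes. App was at 852 ± 161 (SD, n = 3) and 12.9-fold, Itm2b was 2.73-fold and Clu was 1.16-fold over other barcodes, with 3028 in Sertoli-rule barcodes. Of 13 complement genes, 4 had at least 30 UMIs and 3 of these were at least 2-fold higher. Of the 27 lipid and detoxification genes in the tables, 25 had a UMI and all 5 with at least 30 UMIs were at least 2-fold higher. Of 18 interferon and MHC genes, 14 had a UMI, and B2m and Ifitm3 were 7.36-fold and 36.0-fold higher. Of 31 early response and heat shock genes, 27 had a UMI, and the only one with at least 30 UMIs, Hsp90aa1, was lower in members at 0.4-fold.

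**Figure D2:**
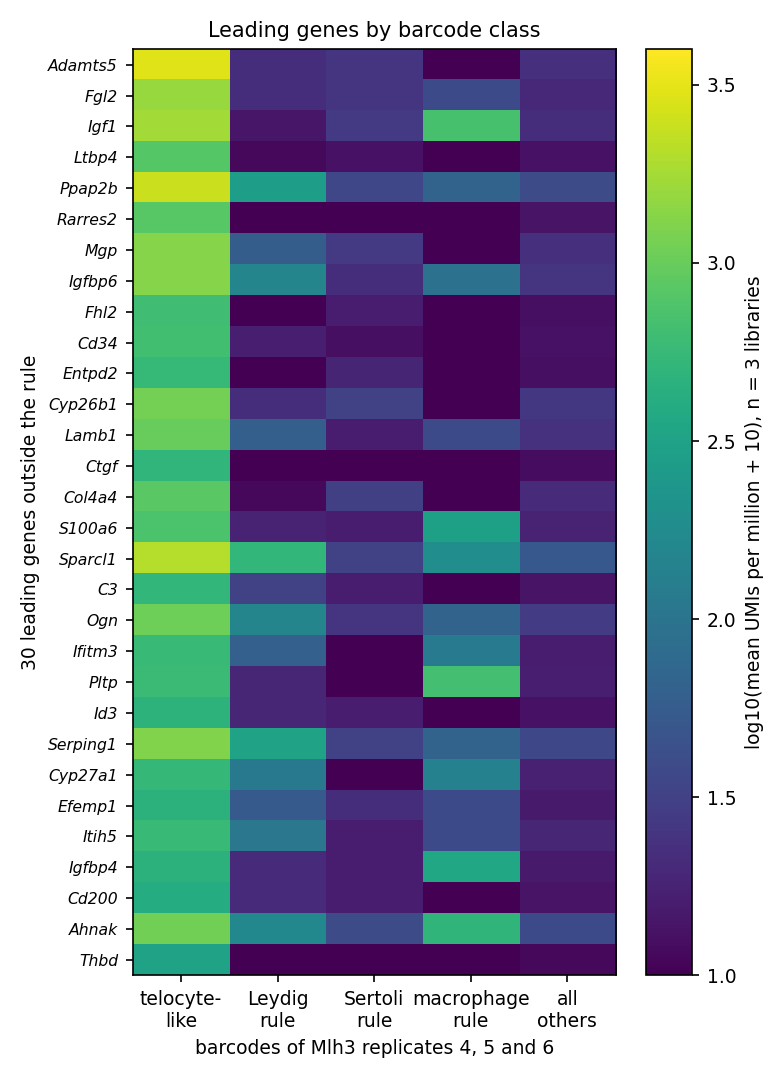
Mean level of the 30 leading genes (rows) in 5 classes of barcodes (columns) of Mlh3 replicates 4, 5 and 6, coloured by log10 of CPM plus 10. The telocyte-like column is high throughout because it chose the genes. Igf1 and Pltp were also high in macrophage-rule barcodes (692 and 649 CPM), and Sparcl1, Serping1 and Ppap2b reached 513, 302 and 272 in Leydig-rule barcodes.

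Markers of other interstitial cell types were detected in part. Tagln and Cnn1 of smooth muscle, Pecam1 and Vwf of endothelium, Rgs5 of pericytes, and Csf1r and C1qa of macrophages had no UMI in any of the 120 members. Acta2 and Myh11 were each found in 1 member, and Cdh5 in 7. From the same lists, Mylk was found in 18 members and any of the 12 myoid genes in 53, any endothelial gene in 15 and any pericyte gene in 11. Insl3, which the rule limits, was found in 14 and any of 10 Leydig genes in 62. In Mlh3 libraries with at least 3 members the myoid genes summed to 994 to 1280 CPM in members and 108 to 221 in the other barcodes, endothelial genes to 0 to 356 against 4.29 to 13.4, and pericyte genes to 94.1 to 331 against 3.58 to 26.8. Endothelial and pericyte genes were at 0 in members of such WT and Cul4a libraries, and myoid genes at 0 to 2281 in WT and 491 to 923 in Cul4a members. Over these members 3 UMIs are 288 CPM in WT and 240 in Cul4a. Endothelial and pericyte sums as low as most of those in Mlh3 could thus be missed there. Leydig genes lay at 996 to 2651 CPM in Mlh3 members against 1781 to 3962 in the other barcodes. The part of these transcripts in the levels above was not tested. No member met the Sertoli or macrophage rule. By counts of at least 3 UMIs over a list, 12 members carried Leydig genes, led by Ptgds, 11 carried myoid genes, led by Smoc2 and Tpm1, 1 Sertoli genes, 1 macrophage genes and 1 endothelial genes, and no member carried lymphocyte, pericyte, erythroid or spermatogonial genes. No doublet caller was run, so that 2 cells in a droplet remain possible.

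A subset of 4 members, all from Mlh3 (1 of replicate 4, 1 of replicate 5 and 2 of replicate 6), carried at least 3 UMIs of mesothelial genes, such as Upk3b and Msln of the lining of body cavities. With 4071 UMIs, they made up 3.89% of the UMIs of members. They held 31 of the 37 C3 UMIs, 22 of 87 of Rarres2 and 34 of 121 of the rule gene Col3a1. They held none of the 584 Gsn, 252 Adamts5, 134 Igf1, 154 Mgp, 63 Pdgfra and 27 Tcf21 UMIs. C3, complement component 3, was at 7615 CPM in these 4 and at 59.6 in the other 116 members. Without them, chosen after the data were seen, 27 of the 30 leading genes were again among the first 30, and C3, Efemp1 and Ahnak were not.

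Single members rarely decided a gene. Of 941 genes with at least 20 UMIs over all members, 3 had over 50% of them in 1 member, namely Igfbp3, Slpi and C3. The 1 member of Mlh3 replicate 6 that held 30 of the 31 Igfbp3 UMIs had 1932 UMIs and also carried 16 Dcn, 8 Gsn, 7 Cyp17a1, 12 Akr1cl and 3 Acta2 UMIs.

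Germ cell transcripts were present in most members. Spermatocyte genes reached 3 UMIs in 60 of 120 members, and spermatid genes in 16 of 16 WT, 12 of 12 Cul4a and 3 of 92 Mlh3 members. The 14 spermatid genes together were at 21697 to 34440 CPM in WT members and 36197 to 48790 in the other WT barcodes. In Cul4a they were at 15928 and 42101 in members against 54874 to 56794, and in Mlh3 at 285 to 471 in members against 769 to 1282 in the other barcodes. In these libraries of at least 3 members, the range in members lay below that in the other barcodes of each strain, and Cul4a replicate 1 members lay below those of every WT library.

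Telocyte-like barcodes took a larger share of Mlh3 libraries than of WT libraries. In WT, 16 of 25594 barcodes were members (0.0625%, 95% exact binomial interval 0.0357 to 0.102). This interval pools the barcodes of all WT libraries and covers counting error only, not the spread between libraries. By library this was 0.182% in replicate 3, 0.101% in replicates 5, 6 and 7, 0.135% in replicate 8, 0.0336% in replicate 9, and none in 5 libraries. In Mlh3, 92 of 9618 were members, at 0.196%, 1.36%, 0%, 1.02%, 1.17% and 1.05% in replicates 1 to 6. All Mlh3 libraries but replicate 3 were above every WT library. The mean was 0.799 ± 0.559% in Mlh3 (SD, n = 6) and 0.0593 ± 0.0664% in WT (SD, n = 11), a difference of 0.740 percentage points that was larger than the spread between libraries (p = 0.00372 by exact two-sided permutation of the libraries, 0.0149 after Benjamini-Hochberg adjustment over 4 comparisons). The size depends on the rule: the difference was 2.54 percentage points without the 0.5% marker minimum, 0.437 with a minimum of 1%, and 1.16 among barcodes of at most 10% mitochondrial UMIs. Within the HiSeq libraries of mechanical dissociation the difference was 0.751 (exact p = 0.0364), and the MiSeq libraries of mechanical dissociation gave 1 WT library and could not be tested.

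The share depends on what else is in the library. Among barcodes that met any of the 4 somatic rules (475 Leydig-rule, 606 Sertoli-rule and 70 macrophage-rule barcodes beside the 120 members), members made up 8.60 ± 6.42% in Mlh3 (SD, n = 6) and 10.5 ± 12.1% in WT (SD, n = 11). This difference had the opposite sign and did not exceed the spread (exact permutation p = 0.781). More telocyte-like cells and fewer germ cells per testis cannot be told apart from shares of all barcodes.

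Mlh3 replicate 3 had no member although its markers were present. Its 795 barcodes had a median of 2175 UMIs, the 7 rule genes were at 309 CPM over all of its barcodes, and 53 barcodes had at least 3 marker UMIs with Dcn, but the highest marker share was 0.395%. Counted as UMIs of the 7 rule genes over all barcodes, the 6 Mlh3 libraries were at 196 to 340 CPM and the 11 WT libraries at 5.60 to 105, with 6 of 6 Mlh3 libraries above every WT library. The means were 266 ± 65.9 (SD, n = 6) and 31.05 ± 26.6 (SD, n = 11), and the exact permutation p of 0.000162 is the smallest this design can give. This measure was added after the data were seen. It counts the rule's own genes rather than members, and like the share of all barcodes it depends on what else is in the library. Members held 41.7% of the marker UMIs of Mlh3 libraries and 34.9% of those of WT. At least 1 marker UMI was also found in 16.4% of the other Mlh3 barcodes, against 2.33% in WT, 5.33% in Cul4a and 2.06% in CNP.

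**Figure D3:**
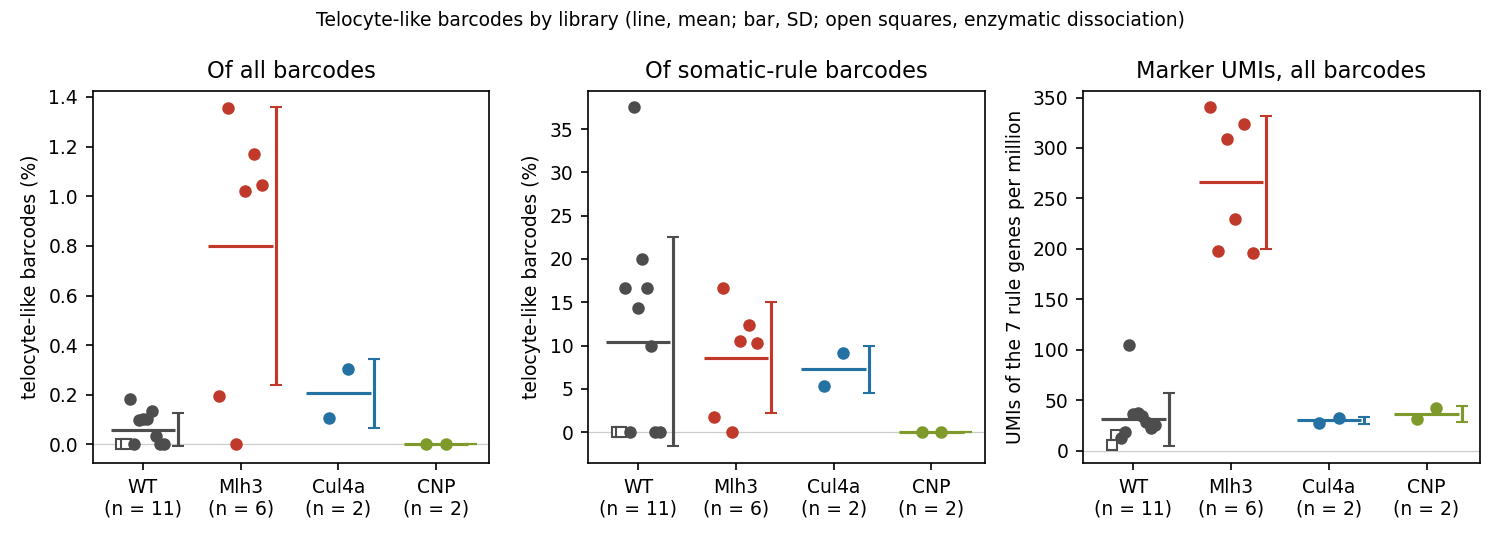
Each point is a library. The left and middle panels show telocyte-like barcodes as percent of all barcodes and of barcodes that met any somatic rule, and the right panel shows CPM of the 7 rule genes over all barcodes, with means and SD. Mlh3 means were 0.799% against 0.0593% in WT on the left and 8.60% against 10.5% in the middle.

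In Cul4a, 3 of 2765 and 9 of 2967 barcodes were members, or 0.108% and 0.303%. The mean of 0.206 ± 0.138% (SD, n = 2) was 0.147 percentage points above WT, which was not beyond the spread between libraries (exact permutation p = 0.0769, adjusted 0.154, with 0.0256 the smallest possible). Marker UMIs over all barcodes were at 30.0 ± 3.37 CPM (SD, n = 2) in Cul4a, against 31.05 in WT (exact permutation p = 0.718). The CNP libraries had 0 members of 2525 barcodes, which at 3 counts of the total allows a share of up to 0.119%. Their difference from WT was −0.0593 percentage points (exact permutation p = 0.538, adjusted 0.538), and their marker UMIs were at 36.7 ± 8.00 CPM (SD, n = 2). The 2 enzymatic WT libraries had 0 members of 699 barcodes, which by the same floor allows up to 0.429%, against 0.0725 ± 0.0666% in the 9 mechanical WT libraries (SD, n = 9; exact permutation p = 0.364, adjusted 0.485). Marker UMIs over all barcodes were at 10.4 ± 6.79 CPM (SD, n = 2) in the enzymatic and 35.6 ± 27.3 (SD, n = 9) in the mechanical WT libraries (exact permutation p = 0.0727, with 0.0364 the smallest possible). At these depths a difference in the share of CNP or of the enzymatic libraries from the low WT share was not detectable.

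Gene levels within members were compared between strains on counts summed per library, in the 10 libraries with at least 3 members (WT replicates 5 to 8, Mlh3 replicates 2, 4, 5 and 6, Cul4a replicates 1 and 2). Igf1 rose in Mlh3 members and spermatid genes fell in them under each of the 4 scalings and tools run. The matrix and stromal genes gave no call with library totals as scaling, but some or most of them were called higher in Mlh3 with the other 3. The edgeR quasi-likelihood test at an adjusted p under 0.05 called 3 of 2344 genes higher in Mlh3 than in WT, or 0.128%, and 52 lower, or 2.22%. Of the 770 tested genes that were at least 2-fold higher in members than in other barcodes, 2 were called, Igf1 higher and BC049635 lower. This ratio was taken in Mlh3 replicates 4, 5 and 6, so a gene high only in Mlh3 members could pass. Of the 770, 226 had no UMI in the tested WT members, so a tilt towards higher calls is built in. With TMM factors 65 of the 770 were called higher and 1 lower, with the DESeq2 test 58 and 0, and with DESeq2 size factors in edgeR 246 and 0. Of these genes called higher, 35 with TMM factors and 11 with the DESeq2 test had no UMI in the WT members, as did most of the 246. Over all 2344 genes, 5.29%, 5.42% and 21.6% were called higher in the same order. All 55 called genes differed in the same direction in the other barcodes of the libraries, where Igf1 was at 12.8 CPM in Mlh3 and 8.01 in WT. With other scalings the split between higher and lower moved, to 124 higher and 23 lower with TMM factors and 507 and 19 with DESeq2 size factors, which shifted the median log2 fold change of all genes from 0.22 to 1.68 and 2.26. On counts simulated with no change, these factors gave an excess of unadjusted p-values under 0.05 that library totals did not, but few calls at the adjusted threshold. The simulated libraries all had the same composition, whereas spermatid and mitochondrial RNA of members differed between strains. The simulation therefore cannot show which scaling suits these data.

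Igf1 was at 0 CPM in members of WT replicates 5, 6, 7 and 8, and at 663, 1280, 2777 and 1155 in Mlh3 replicates 2, 4, 5 and 6. The 2 groups did not overlap. The Mlh3 mean of 1469 ± 912 (SD, n = 4) was at least 5.11-fold higher than the floor of 288 CPM that 3 UMIs over the 10431 UMIs of these WT members give, with an adjusted p of 0.000605 in edgeR. The libraries with fewer members reduced the separation: WT replicate 3 had 0, but the single member of WT replicate 9 had 1 Igf1 UMI among 904, which gave 1106, and Mlh3 replicate 1 had 1462. Over all libraries with members, Mlh3 was at 1467 ± 790 (SD, n = 5) and WT at 184 ± 452 (SD, n = 6). Exact two-sided permutation of these libraries gave an unadjusted p of 0.00866. In the libraries with at least 3 members the same permutation gave p = 0.0286, the smallest possible there. Igf1 was picked from all tested genes for its call and lack of overlap in largely the same libraries. Neither permutation p-value is therefore independent evidence. Pooled over members, 128 UMIs in Mlh3 and 1 in WT gave a ratio of 18.9 with a counting interval of 3.32 to 750. At least 1 Igf1 UMI was present in 42 of 92 Mlh3, 3 of 12 Cul4a and 1 of 16 WT members.

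In macrophage-rule barcodes, the other class with a high Igf1 level, Igf1 was at 779 CPM in WT from 3 UMIs (95% exact Poisson interval 161 to 2277), at 453 in Mlh3 (306 to 647) and at 521 in Cul4a (209 to 1074), with intervals that cover counting error only. The WT interval holds both other values, so no order can be read. The macrophage marker genes together were at 0 in the 4 WT libraries' members and at 47.1 to 1325 in Mlh3 members, where Csf1r, C1qa, C1qb and Cd68 had no UMI. In Mlh3 replicates 4, 5 and 6 this sum was at 47.1 to 73.7 CPM, below the WT floor of 288. The 0 in WT therefore does not separate WT from these libraries. Of the 16 macrophage genes measured, 8 had a UMI in members, and their part in the Igf1 difference was not tested.

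The 2 other genes called higher in Mlh3 were the mitochondrial ribosomal RNAs mt-Rnr1 and mt-Rnr2. Both were also higher in the other barcodes of Mlh3 libraries. Levels of mt-Rnr2 were 80517, 140622, 59685 and 94233 CPM in Mlh3 members and 20722, 19296, 9840 and 7605 in WT members (log2 fold change 2.69, SE 0.50, adjusted p = 1.59e-05 in edgeR). With members of at most 10% mitochondrial UMIs, the adjusted p of Igf1 was 0.000445.

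Genes lower in Mlh3 members were led by those of sperm chromatin and the sperm tail. Of 11 spermatid genes tested, 10 were lower and 0 higher, where 2.22% of all genes tested were lower. With TMM factors, DESeq2 and DESeq2 size factors in edgeR, 8, 6 and 8 were lower, against 0.981%, 0.341% and 0.811% of all genes. Prm2, a protamine that packs sperm DNA, was at 4876, 11577, 11070 and 3422 CPM in WT members and 0 in all 4 Mlh3 libraries (adjusted p = 2.37e-24 in edgeR). In the other barcodes Prm2 was at 11620 in WT and 0.732 in Mlh3. Smcp, of the sperm mitochondrial sheath, was at 3690 to 4183 in WT members and 0 in Mlh3 members. Of 6 spermatocyte genes tested, Ldhc, the testis lactate dehydrogenase, was the only one called, with 1506 against 4718 (log2 fold change −1.60, SE 0.48, adjusted p = 0.0380 in edgeR). With the other 3 scalings and tools no spermatocyte gene was lower, and Piwil1 and Sycp3 were called higher by each, both with no UMI in WT members. BC049635 was at 488, 965, 1845 and 380 in WT members and 0, 71.1, 0 and 0 in Mlh3, from 8 and 1 UMIs (ratio of WT to Mlh3 60.6, counting interval 8.13 to 2689), and at 664 against 1.06 in other barcodes. Its ratio of members to other barcodes rests on the 1 UMI of Mlh3 replicate 4: in WT the members were at 919 CPM against 664, and pooled Cul4a members at 321 against 480, so it did not mark members where it was detected most.

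Telocyte and matrix genes were not called between Mlh3 and WT with library totals, against the background of 2344 genes with a median log2 fold change of 0.22. Since Mlh3 members held far more UMIs, 484 of the 2344 genes passed the minimum of 10 UMIs with none in WT, and these raise the medians (without them the background is −0.10). The 7 tested genes of the study's telocyte list had a median log2 fold change of 0.80 with 0 called and a WT UMI for each. The 14 matrix genes outside the basement membrane list were at 0.75 with 0 called (0.33 over those with a WT UMI), and the 11 basement membrane genes at 0.79 with 0 called (0.78). These lists overlap the telocyte list: Col6a1 is also among the 14, and Col4a1, Col4a4, Lama2, Lamb1 and Lamb2 are among the 11. The 14 growth factor genes had a median of 0.54 with Igf1 as the only call (0.33), and the 16 matrix turnover genes 0.42 with 0 called (0.37). Adamts5 overlapped, with 1950, 965, 615 and 4563 in WT and 2982, 3130, 3671 and 2187 in Mlh3 (log2 fold change 0.46, SE 0.51, adjusted p = 0.778 in edgeR). Receptors (6 tested), transcription factors (17), surface genes (15), complement (8), amyloid processing (8), lipid and detoxification (15), early response (9) and interferon genes (4) also had 0 calls. With so few UMIs in WT members, a lack of calls does not show that levels were equal. These counts depend on the scaling, as does the background: 5.29% of all 2344 genes were called higher with TMM factors, 5.42% (127 genes, and 8 lower) with DESeq2 and 21.6% with DESeq2 size factors in edgeR. Of the 7 telocyte genes, Lamb1 was called higher with TMM factors, Lamb1, Lama2 and Col4a4 with DESeq2, and all 7 with DESeq2 size factors in edgeR. In the same order, 1, 3 and 9 of the 14 matrix genes and 1, 3 and 8 of the 11 basement membrane genes were called higher. The basement membrane calls with TMM factors and with DESeq2 were the telocyte genes just named, so they add no gene. Of the 14 growth factor genes 3, 4 and 7 were called higher, and of the 17 transcription factor genes 5, 2 and 9. Igfbp3, a growth factor call with TMM factors and with DESeq2 size factors, had 30 of its 31 UMIs in 1 Mlh3 member. Of the 8 amyloid processing genes 4, 3 and 5 were called higher, Apoe, C3 and Clu by each, of the 8 complement genes 2, 2 and 2, and of the 9 early response genes 2, 1 and 4. The complement calls were C3 and Clu each time. C3 had 31 UMIs in the 4 mesothelial-marked members and 6 in the other 116, and Clu did not mark members, so neither describes telocyte-like cells. The counts were 0, 0 and 4 for 6 receptor and for 15 surface genes, 1, 2 and 3 for 16 matrix turnover genes, 1, 1 and 3 for 15 lipid and detoxification genes, and 0 for 4 interferon genes. The median of all genes then stood at 1.68, 2.34 and 2.26, and that of the telocyte genes at 2.29, 3.07 and 2.95. The telocyte genes thus lay above the median of all genes by less than 1 log2 unit under each. Each of the 7 had a WT UMI, and over the genes with a WT UMI the median was 1.38, 2.05 and 1.98. Against these genes the gap was wider under each.

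**Figure D4:**
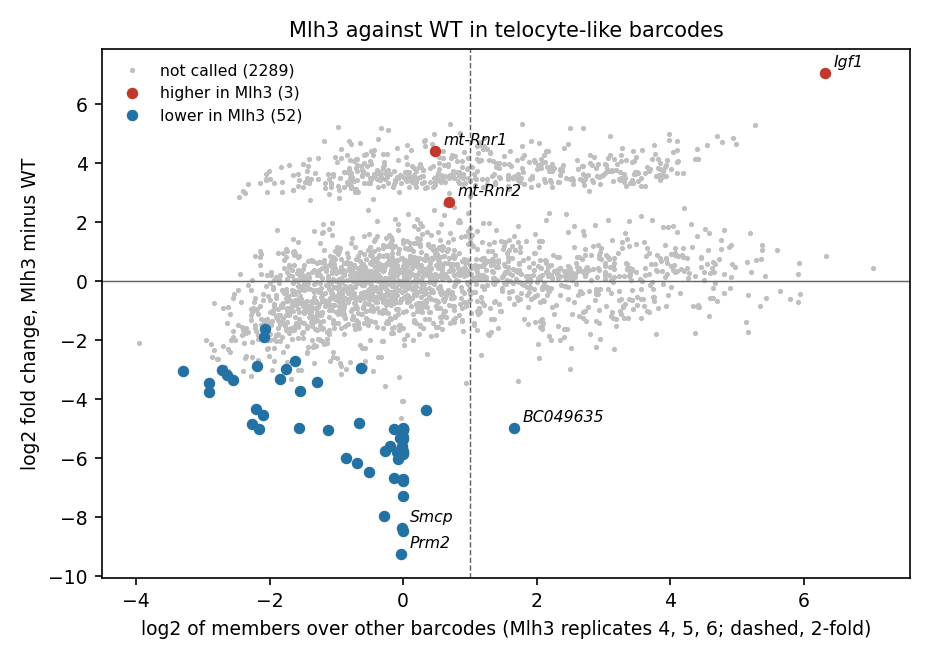
Each of the 2344 tested genes is a point, with the log2 ratio of members to other barcodes in Mlh3 replicates 4, 5 and 6 on the horizontal axis and the fitted log2 fold change of Mlh3 over WT members on the vertical axis. The 52 genes called lower (blue) lie mostly left of the dashed 2-fold line, Igf1 lies at the upper right among the 3 called higher (red), and the upper band of uncalled genes holds mainly genes with no UMI in WT members, whose fitted values are no bound.

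Between Cul4a and WT members the test called 0 of 2344 genes higher, or 0%, and 0 lower, or 0%. At an unadjusted p under 0.05 there were 84 genes, and DESeq2 also called 0. Cul4a members held 12479 UMIs in 2 libraries, so the lack of calls does not show that levels were equal. Igf1 was at 231 and 491 CPM in Cul4a members against 0 in the 4 WT libraries (adjusted p = 0.742 in edgeR). Mgp was at 3693 and 1841 in Cul4a and 488, 0, 3690 and 1141 in WT (adjusted p = 0.742), and the groups overlapped. Adamts5 was at 462 and 245 in Cul4a, from 4 UMIs, below the 615 to 4563 of the WT libraries (log2 fold change −2.69, SE 0.88, adjusted p = 0.742).

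Mlh3 and Cul4a, both labelled B6;129, differed in 5 genes higher in Mlh3, or 0.213% of 2344, and 65 lower, or 2.77%. The only called gene that was at least 2-fold higher in members than in other barcodes of Mlh3 replicates 4, 5 and 6 was Adamts5. It was at 2982, 3130, 3671 and 2187 CPM in Mlh3 and 462 and 245 in Cul4a. Its groups did not overlap (log2 fold change 3.14, SE 0.79, adjusted p = 0.00357 in edgeR), but the Cul4a level rests on 4 UMIs. In edgeR with DESeq2 size factors the call was lost (adjusted p = 0.106). Without Cul4a replicate 2, which leaves 1 Cul4a library, the log2 fold change of Adamts5 was 2.65, and no p-value is given. The other 4 were mt-Rnr1, mt-Rnr2, Yam1 and the splicing factor Rbm25, each within 1.61-fold of its level in other barcodes. Of 11 spermatid genes tested 10 were lower in Mlh3, and of 6 spermatocyte genes Ldhc and Meig1 were. Igf1 was at 663 to 2777 in Mlh3 and 231 and 491 in Cul4a, which did not overlap but were not called (adjusted p = 0.144). Other scalings also moved the split over the 2344 genes, to 9 higher in Mlh3 and 28 lower with TMM factors. It was 5 and 7 with the DESeq2 test and 1 and 11 with DESeq2 size factors in edgeR. Both comparisons of Mlh3 use the same 4 Mlh3 libraries and so are not independent. No comparison was possible for CNP, which had no members.

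**Figure D5:**
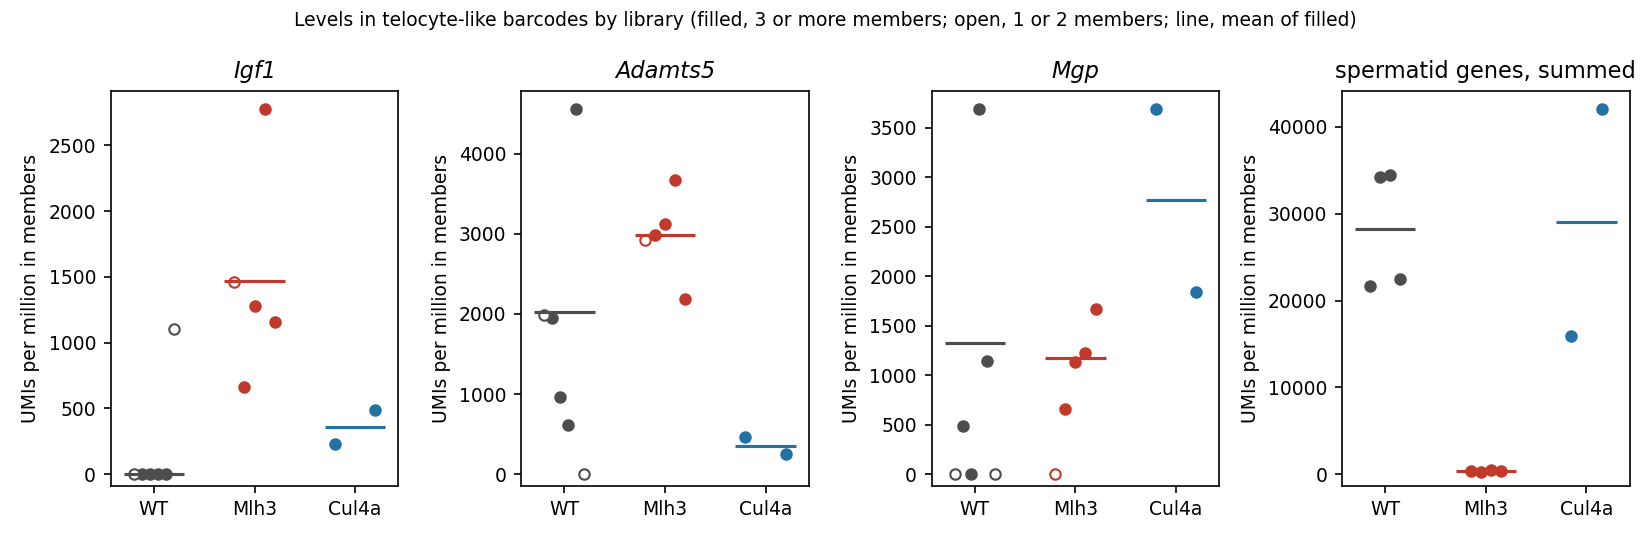
Levels in telocyte-like barcodes in CPM (vertical axes) for Igf1, Adamts5, Mgp and the sum of 14 spermatid genes, by strain. Each point is a library, filled with 3 or more members and open with 1 or 2 (not shown for the sum), and lines are means of the filled points. Igf1 was 0 in the 4 filled WT libraries and 663 to 2777 in Mlh3, and the spermatid sum was 285 to 471 in Mlh3 and 15928 to 42101 in WT and Cul4a.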

How the data were processed

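Drop-seq captures transcripts at their 3′ ends on barcoded beads. The authors aligned reads to mm10 (GRCm38) with STAR 2.5.3a and deposited raw UMI counts per gene and barcode, 1 table per library, which were used as deposited. Members were found by the rule given with the results, and members and gene lists were chosen with earlier results of these data known. Leydig-rule barcodes had at least 3 UMIs and 1% of UMIs over Insl3, Cyp17a1, Cyp11a1 and Star. Sertoli-rule and macrophage-rule barcodes had at least 3 UMIs and 0.5% over Aard, Defb36, Cst12, Cst9, Gstm6, Gstm7, Wfdc10, Rhox5 and Sox9, or over Csf1r, C1qa, C1qb, C1qc, Cd68, Adgre1, Mrc1 and Lyz2. No barcode was removed for mitochondrial RNA or as a doublet. Coordinates are from GENCODE release 21 for mouse.

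Shares per library were compared by exact two-sided permutation of libraries (scipy 1.17.1). The study's text counts 11 WT animals, 1 for each WT library. For the other strains the labels do not state that libraries are from separate mice, so p-values measure the spread between these libraries, which may be technical in part. Counts summed over members per library were tested with edgeR 4.0.16 (quasi-likelihood, 1 fit over 3 strains, 7 residual degrees of freedom, genes with at least 10 UMIs, the 11 genes of the rule left out of the test, Benjamini-Hochberg adjustment). Each SE of a log2 fold change was back-calculated as its absolute value over the normal quantile of its p-value. It is thus an approximation and not a standard error from the fit. The minimum of 10 members per library fixed at first left Mlh3 replicates 4, 5 and 6 only, so libraries with at least 3 members were used. TMM factors ran from 2.18 at 1626 UMIs to 0.398 at 40697 UMIs, so library totals alone were used as scaling, and TMM, DESeq2 1.42.0 and its size factors became alternatives. The edgeR fits with each scaling were tested on simulated data, the DESeq2 test was not. These 2 choices were made after the data were seen.

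Genes were named by rule: the 7 rule genes and Cd34, the 30 leading genes, the list members with the highest levels or a call, called genes at least 2-fold higher in members whose libraries did not overlap, and the highest marker of each other class. Chromosome ranges are given as the annotation's first and last base. Sorted libraries and a further mutant strain of the study were not analysed here beyond the values in the closing section.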

Additional observations from a re-analysis of the deposited data

Results flagged for a closer look

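Of 42 groups of 4 to 10 libraries checked, 4 held a library far from the others by Dixon's criterion, and chance gives about 1 in 20. That rate does not hold for counts near 0: where all other libraries are at 0, any UMI is flagged. WT replicate 5 had a marker level of 105 CPM over all barcodes, against 13.1 to 37.6 in the other mechanical WT libraries. In its members Cd34 was at 731 CPM, from 3 UMIs, against 0 in the other WT libraries with at least 3 members, so this flag was fixed in advance. In the members of Mlh3 replicate 2 Cd34 was at 0, against 639 to 659 in replicates 4 to 6, and the growth factor genes summed to 3976 CPM, below the other Mlh3 libraries. That library held 4 members with 3018 UMIs, where 3 UMIs are 994 CPM, so its Cd34 level of 0 does not separate it from replicates 4 to 6.

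The rule was also met by barcodes of sorted germ cells, which no comparison used. The sorted spermatogonia came from pooled mice labelled C57BL/6 and Pouf51-EGFP at 7 days of age, in the study's methods a B6;CBA line with a Pou5f1-EGFP transgene. The other sorted libraries came from wild-type C57BL/6 of 2 months 21 days. In the spermatogonia 3 of 292 barcodes met it, with 2818, 2233 and 1135 UMIs and 47, 73 and 9 marker UMIs. In the sorted secondary spermatocytes 3 of 154 met it, with 817, 262 and 280 UMIs and 17, 8 and 3 marker UMIs. None met it among 198 sorted primary spermatocyte and 291 sorted spermatid barcodes, which allows up to 1.52% and 1.03%. Over the 12 myoid genes these barcodes had 10, 5 and 5 UMIs in the spermatogonia and 1, 0 and 1 in the secondary spermatocytes, with none of Acta2 or Myh11.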

How the results depend on the processing

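The share of members in Mlh3 over WT was 0.740 percentage points and lay between 0.437 and 2.54 with a 1% marker minimum, no minimum, 500 UMIs, thinning, a mitochondrial limit or the HiSeq libraries alone, all past the threshold. It was −1.86 over all somatic barcodes, and 1.16 over members and Sertoli-rule barcodes (exact permutation p = 0.860), where Cul4a was −3.19 and −1.47 from WT. Leaving out 1 library gave 0.628 to 0.899 for Mlh3. Same-numbered libraries did not deviate together (r from −0.304 to 0.162 over 6 pairs, 1 of 6 best with its own number), so the numbers share only a number. With them paired as a replicate block the Mlh3 share was 0.735 (exact p = 0.0625) and that of CNP 0.

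Against the 55 genes called between Mlh3 and WT and the 70 between Mlh3 and Cul4a, TMM factors called 147 and 37, DESeq2 135 and 12 (with 1500 and 1999 adjusted p-values not given), DESeq2 size factors in edgeR 526 and 12, filterByExpr 15 and 16 (37 genes tested), and libraries of at least 1 member 90 and 106. No filter on low counts called 97 between Mlh3 and WT. Libraries of at least 5 members left Cul4a replicate 2 alone on its side, so no count is given for that fit. The replicate block, with 1 residual degree of freedom, called 9 and 2. The calls were 34 to 56 and 19 to 69 with 1 library left out. The lowest, 34 and 19, came without Cul4a replicate 2, and 39 between Mlh3 and Cul4a came without Cul4a replicate 1. Genes at least 2-fold higher in members and called between Mlh3 and Cul4a numbered 0 to 6, against 1. Between Cul4a and WT 0 genes were called under every alternative run. Apart from the lower number of libraries or genes tested, the cause was not tested. Igf1 was not among the genes tested with filterByExpr. Elsewhere it kept its direction, and its call (adjusted p 1.74e-05 to 0.0231) except with the block (0.0715). BC049635 lost its call with DESeq2 size factors (0.0702) and the block (0.779) and had no adjusted p with filterByExpr or DESeq2. Adamts5 between Mlh3 and Cul4a lost its call in edgeR with DESeq2 size factors (adjusted p 0.106, log2 fold change 4.23) and the block (0.936 and 3.54). Fits with 1 Cul4a library cannot show whether the call held, since that side has no spread, so only fold changes are given. The log2 fold change of Adamts5 was 3.56 with libraries of at least 5 members. It was 3.54 without Cul4a replicate 1 and 2.65 without Cul4a replicate 2. The planned fits over libraries of at least 10 or 20 members, any fit for CNP, and the merger of Mlh3 replicates 2 and 3 in the gene test could not be run, since too few libraries had members. WT and Cul4a levels rest on 11839 and 12479 UMIs, where 3 UMIs are 253 and 240 CPM.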
